A study of Mus musculus with 7 samples.

Results

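Chemokines and chemokine receptors were examined in the prostate of Nkx3.1-/- mice that received the antioxidant N-acetylcysteine (NAC) or plain water (vehicle). Some genes of neutrophil and monocyte recruitment were left out by name, while others remain among the members. The members are the genes whose symbol is Ccl, Cxcl, Ccr or Cxcr with a number, together with Cx3cl1, Cx3cr1, Xcl1 and Xcr1. This name rule matched 52 genes. Ccl2, Cxcl1, Cxcl2, Cxcl5, Cxcr1 and Cxcr2 were left out by name (6 genes) and Cxcl11 as a pseudogene (1 gene), which left 45 of the 18938 genes measured. Of the 45, 29 are ligands and 16 are receptors, and each is read by 1 probe set, the group of probes that gives 1 value for a transcript. The Ccl21 and Ccl27 genes stand on 3 probe sets that each name several genes and are not among the members.

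All mice lacked Nkx3.1, a homeobox transcription factor of the prostate epithelium, in a recombinant inbred B6/129 background. NAC, a precursor of glutathione, was given at 5 mM in the drinking water for 13 weeks from weaning, and the prostates were taken at 16 weeks of age. Expression was read on Mouse Gene 1.0 ST arrays from Affymetrix, 1 mouse per array, with 3 vehicle arrays (replicates 1, 2 and 4) and 4 NAC arrays (replicates 1 to 4). A further vehicle mouse had its RNA taken, but its array failed quality control and is not among the 3. The extraction protocol names the anterior prostate while the tissue label names the whole prostate, and the mice of a litter were split over cages with and without NAC, so that cage and treatment cannot be told apart.

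Of 10 prostate epithelium markers 9 were measured, and all 9 lay in the upper part of the measured genes. Their mean log2 level was 11.08 to 11.13 on the vehicle arrays and 11.02 to 11.30 on the NAC arrays. NAC array 3 stood apart in transcripts of other tissues. Its log2 level of the surfactant gene Sftpc was 10.51, against at most 5.26 on every other array, and adipocyte and skeletal muscle markers were also highest there. Values were often tied across arrays, in 3 or more arrays for 7568 of all genes and for 16 of the 45 members, and a small difference can then rest on few arrays.

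Chemokines are small secreted proteins, classed as CC, CXC, CX3C or XC by the spacing of cysteines near their amino terminus, that bind G protein-coupled receptors on leukocytes and direct their migration. Inflammatory chemokines are made on demand by macrophages, epithelium and stroma, whereas homeostatic chemokines such as Cxcl13 and Ccl19 position lymphocytes and dendritic cells in lymphoid tissue. Ligands and receptors form a network in which 1 receptor can bind several ligands. In bulk tissue RNA, fewer cells of a type and less RNA per cell cannot be told apart.

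RefSeq promoter sequences (GRCm38.p6) were at hand for 34 of the 45 members. Those of Ccl6 and Ccl9 are shown because these genes encode closely related Ccr1 ligands and had the 2 largest positive differences among the ligands described below, and that of Cxcl13 is shown for its TATA box. Each is the 150 bases before the annotated start, read 5′ to 3′ on the strand of the gene. Ccl6 lies on the minus strand at chr11:83593088-83593237, Ccl9 on the minus strand at chr11:83578637-83578786, and Cxcl13 on the plus strand at chr5:95956789-95956938. Capitals mark runs of at least 8 bases that Ccl6 and Ccl9 share, and in Cxcl13 the letters TATAAA.
Ccl6: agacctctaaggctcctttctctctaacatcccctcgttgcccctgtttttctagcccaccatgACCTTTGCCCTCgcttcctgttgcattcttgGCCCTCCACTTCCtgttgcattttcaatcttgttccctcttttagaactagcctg
Ccl9: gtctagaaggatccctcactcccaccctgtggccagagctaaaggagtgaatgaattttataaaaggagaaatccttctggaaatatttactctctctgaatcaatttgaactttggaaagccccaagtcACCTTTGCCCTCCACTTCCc
Cxcl13: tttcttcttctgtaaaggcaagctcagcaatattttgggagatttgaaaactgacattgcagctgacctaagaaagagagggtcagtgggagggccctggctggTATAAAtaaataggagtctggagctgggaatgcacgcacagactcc

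The longest run that Ccl6 and Ccl9 share is 13 bases. Among the 561 pairs of members with a promoter the median longest run was 7, and 0 other pairs had a run as long. In Cxcl13 the TATAAA begins 46 bases before the start. TATAAA on the gene's strand within the last 50 bases was present in 7 of the 34 members (20.6%), which are Ccl8, Ccl12, Cx3cl1, Cxcl3, Cxcl13, Cxcl15 and Cxcr4, and in 2.88% of all 27025 promoters. Within 250 bases on both strands, the interferon-stimulated response core GAAANNGAAA was found in Ccl19, Cxcl10 and Cxcl14 (8.82% of members, 3.04% of all promoters). The STAT site TTCNNNGAA was found in Ccl17, Ccr1l1, Ccr6 and Cxcl14 (11.8% against 7.18%), and its wider form TTCNNNNGAA in Ccl17 (2.94% against 5.86%). The AP-1 site TGANTCA was found in Ccl9, Ccr3, Ccr4 and Cxcl10 (11.8% against 6.87%). No matches of different motifs overlapped in a member, and these matches describe letters, not bound sites.

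No chemokine or receptor passed the adjusted test between NAC and vehicle prostates. Most had a mean slightly higher with NAC, and Ccl6, a macrophage-derived attractant, Cxcl13, an attractant of B cells, and Ccl24, an attractant of eosinophils, lay above vehicle on every NAC array. Cxcl14, an epithelial chemokine, lay below vehicle on every NAC array by a small amount. Of the 45 members, 33 had a log2 fold change (NAC minus vehicle) above 0 and 12 below 0, from -0.54 for Ccl19 to 0.47 for Ccl9. The median was 0.04, against 0.00 for all genes, of which 49.8% were above 0. Of the 45 members, 28 were dim (low in mean level, as defined below). Over all genes 1.29% lay wholly above vehicle and 2.18% wholly below, against 1.03% and 3.26% without dim genes. The median of the members was 0.019 after quantile normalization was repeated and 0.089 for the 17 members that were not dim. The part of dimness in these small differences was not tested.

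NAC and vehicle were compared with limma over all genes, and 0 members passed an adjusted p under 0.05 (0% of all genes did). The smallest adjusted p was 0.827, for members and for all genes. At an unadjusted p under 0.05, 3 members were higher, Ccl6, Ccl24 and Cxcl13 (6.67%, against 1.89% of all genes), and 0 were lower (2.53% of all genes). The same 3 genes were the members with all NAC arrays above all vehicle arrays (1.29% of all genes). Cxcl14 was the 1 member on which every NAC array lay below vehicle (2.22%, against 2.18% of all genes). An exact permutation test over the 35 splits of the arrays cannot give a two-sided value below p = 0.0571, which these 4 genes reached. Any gene whose groups do not overlap reaches this value, so it adds nothing to the lack of overlap. The counts moved with single arrays, for the members as for all genes. Without vehicle array 4 the unadjusted count of higher members was 5 (Ccl6, Ccr4, Cxcl13, Cxcl17 and Xcr1), 11.1% against 1.76% of all genes, and 8 members lay wholly above vehicle, 17.8% against 4.49%. Without vehicle array 1 the counts were 3 (Ccl6, Ccr1l1 and Cxcl13, 1.62% of all genes) and 5 (11.1%, against 4.85% of all genes). Without NAC array 3 they were 3 (Ccl6, Ccl9 and Ccl26, 1.51% of all genes) and 3 (2.17% of all genes). Lower members at an unadjusted p under 0.05 numbered 2 without vehicle array 2 (4.44%, against 2.96% of all genes), 2 without NAC array 4 (1.78% of all genes) and 1 without NAC array 1 (2.55% of all genes). Members wholly below vehicle numbered 3 without vehicle array 2 (6.67%, against 7.28% of all genes), and 2 each without vehicle array 4, NAC array 1 or NAC array 2 (5.15%, 3.82% and 6.14% of all genes). With fewer arrays in a group more genes separate, so these counts are read only beside the shares of all genes.

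**Figure D1:**
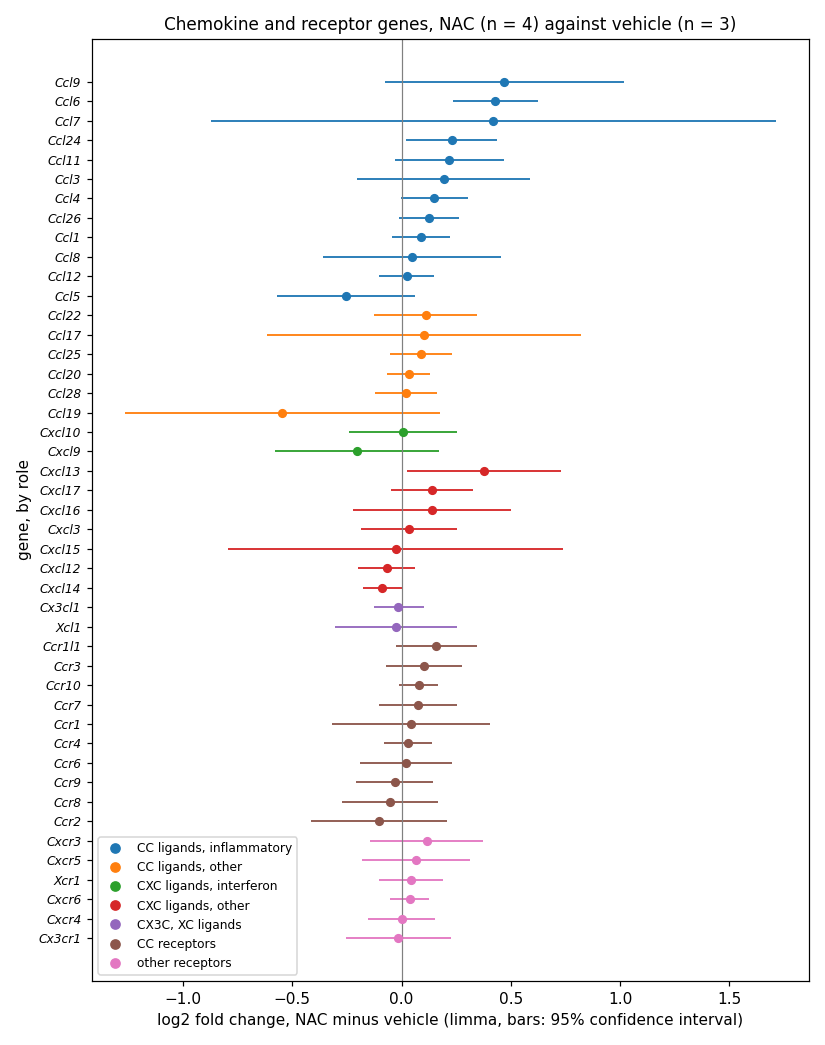
Log2 fold change of each of the 45 members (points, x axis, NAC minus vehicle, n = 4 and 3) with its 95% confidence interval from limma (bars), ordered by role on the y axis. The intervals of Ccl6, Ccl24 and Cxcl13 lie above 0, receptors lie between -0.10 and 0.16, and Ccl7, Cxcl15, Ccl17 and Ccl19 have the widest intervals.

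Ligands and receptors are described apart. Of the 29 ligands, 21 were above 0 and 8 below, with a median of 0.09, and 9 differed by at least 0.2 on the log2 scale. Of the 16 receptors, 12 were above 0 and 4 below, with a median of 0.04, and 0 differed by as much. The receptors were mostly dim on the arrays, with 14 of 16 under the 40th percentile of the mean levels of all genes against 14 of 29 ligands, and 7 of the 9 ligands that differed by at least 0.2 were not under it. The difference between ligands and receptors was not tested. For all genes, 4.48% differed by at least 0.2. The original work listed leading edge genes, the ones that drive the enrichment of a gene set with NAC, from these same arrays. Such a choice favours genes higher with NAC and takes them from the remainder, so neither part is independent evidence of direction. That list holds 14 of the members, all 14 above 0 with a median of 0.11. Of the other 31 members 19 were above 0 and 12 below, with a median of 0.02.

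The inflammatory CC ligands had the highest median of the roles. Of the 12, 11 were above 0 and 1, Ccl5, was below, with a median of 0.17 (all genes 0.00). Ccl6 and Ccl24 passed the unadjusted threshold, and 6 of the 12 differed by at least 0.2. Ccl6, a rodent CC chemokine that attracts monocytes and macrophages, stood at a log2 expression of 7.56, 7.86 and 7.85 on vehicle arrays 1, 2 and 4 and at 8.19, 8.27, 8.10 and 8.19 on NAC arrays 1 to 4. Every NAC array was above every vehicle array, and the gap between the groups was wider than the whole NAC range. The means were 7.76 ± 0.17 (SD, n = 3) and 8.19 ± 0.07 (SD, n = 4), a 1.35-fold difference (log2 0.43, SE 0.08, 95% interval 0.23 to 0.62, adjusted p = 0.827, limma). Without any 1 of the arrays it lay between 0.33 and 0.48, and its unadjusted p was under 0.05 in all 13 alternative analyses that could change it.

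Ccl9, the nearest protein-coding neighbour of Ccl6 on the chromosome and likewise a ligand of Ccr1, had a log2 fold change of 0.47 (SE 0.23) with overlapping groups. Its log2 expression was 6.93, 7.70 and 7.48 on the vehicle arrays and 7.68, 8.12, 7.48 and 8.08 on the NAC arrays. NAC arrays 2 and 4 were above all vehicle arrays, NAC arrays 1 and 3 were below vehicle array 2, and vehicle array 1 was lowest. Without vehicle array 1 its difference was 0.25, and without vehicle array 2 or NAC array 3 its unadjusted p was under 0.05.

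The eotaxins attract eosinophils through Ccr3, and of these Ccl24 passed the unadjusted threshold while Ccl11 and Ccl26 did not. Ccl24 (eotaxin-2) stood at 5.81, 6.21 and 6.04 on the vehicle arrays and at 6.23, 6.25, 6.24 and 6.27 on the NAC arrays. The NAC arrays lay within a narrow band just above vehicle array 2, and the vehicle arrays were spread below it. The difference was 0.23 (SE 0.09, 95% interval 0.02 to 0.44, 1.17-fold). It was 0.12 without vehicle array 1, and its unadjusted p exceeded 0.05 when vehicle array 1, vehicle array 4 or any NAC array was left out. That p also exceeded 0.05 after the arrays were quantile normalized again. Ccl24 was dim, at percentile 32.0 of the mean levels of all genes. Ccl11 (eotaxin-1) was at 7.21, 6.91 and 7.14 with vehicle and at 7.21, 7.27, 7.53 and 7.21 with NAC, a difference of 0.22 (SE 0.10) in which vehicle array 1 equalled NAC arrays 1 and 4. Its highest value was on NAC array 3, and its difference was 0.14 without that array and 0.13 without vehicle array 2. Ccl26, whose human counterpart is eotaxin-3, was at 5.33, 5.39 and 5.44 with vehicle and at 5.56, 5.43, 5.44 and 5.62 with NAC, a difference of 0.13 (SE 0.06) with overlapping groups, and its unadjusted p was under 0.05 without NAC array 2 or NAC array 3. Of 8 eosinophil markers 5 were measured, 4 of the 5 had log2 fold changes above 0 with a median of 0.03, and their mean level was 5.40 to 5.42 on the vehicle arrays and 5.34 to 5.55 on the NAC arrays. The part of these markers in the eotaxin values was not tested.

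Ccl3 and Ccl4 are the macrophage inflammatory proteins, and neither passed the unadjusted threshold. Ccl4, an attractant of monocytes and T cells, was at 6.13, 6.16 and 6.06 on the vehicle arrays and at 6.11, 6.28, 6.32 and 6.36 on the NAC arrays, so that NAC arrays 2, 3 and 4 were above all vehicle arrays and NAC array 1 was among them. The difference was 0.15 (SE 0.06), and its unadjusted p was under 0.05 without NAC array 1. Ccl3, a ligand of Ccr1, was at 5.81, 6.12 and 6.12 with vehicle and at 5.88, 6.48, 6.05 and 6.42 with NAC, a difference of 0.19 (SE 0.17) within overlapping groups. This was 0.09 without vehicle array 1, 0.10 without NAC array 2, 0.12 without NAC array 4 and 0.30 without NAC array 1. Ccl1, Ccl8 and Ccl12 differed by 0.09, 0.05 and 0.02.

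Ccl5 (RANTES), an attractant of T cells and monocytes, went the other way. It stood at 8.30, 8.14 and 8.67 on the vehicle arrays and at 8.01, 8.30, 8.04 and 8.12 on the NAC arrays. Vehicle array 4 was highest and NAC array 2 equalled vehicle array 1 to within 0.01, with a difference of -0.25 (SE 0.13). Without vehicle array 4 this was -0.10, and without vehicle array 2 its unadjusted p was under 0.05.

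Macrophages make many of these ligands, and their markers are given beside them. Of 10 markers, 9 had a log2 fold change above 0, from -0.09 for Mertk to 0.31 for Mrc1 with a median of 0.12, and 0 passed an unadjusted p under 0.05. Their mean log2 level was 7.77 to 7.87 on the vehicle arrays and 7.85 to 8.07 on the NAC arrays, and C1qb was the 1 marker with all NAC arrays above all vehicle arrays. Neutrophil markers ranged from 5.51 to 5.89 with vehicle and from 5.71 to 6.08 with NAC (6 of 6 measured markers above 0, of 7 listed). Log2 array values have no true 0, and no marker can be called absent. The part of these cells in the ligand values was not tested.

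**Figure D2:**
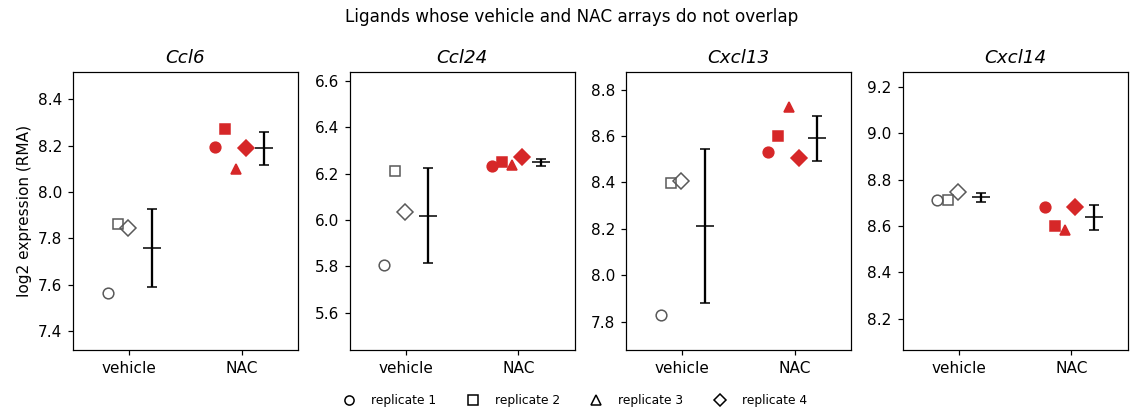
Log2 expression (y axis, RMA) of Ccl6, Ccl24, Cxcl13 and Cxcl14 on each vehicle array (open grey symbols) and NAC array (filled red symbols), with the mean and SD of each group beside them. The groups do not overlap in any of the 4 genes, vehicle array 1 is lowest in Ccl6, Ccl24 and Cxcl13, and all panels span the same length of log2 scale.

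Among the CXC ligands other than those induced by interferon, 4 of 7 were above 0 and 3 below, with a median of 0.03. Cxcl13, which guides B cells and follicular helper T cells through Cxcr5, stood at 7.83, 8.40 and 8.41 on the vehicle arrays and at 8.53, 8.60, 8.72 and 8.51 on the NAC arrays. All NAC arrays were above all vehicle arrays, and vehicle array 1 was far below the other two. The means were 8.21 ± 0.33 (SD, n = 3) and 8.59 ± 0.10 (SD, n = 4), a 1.30-fold difference (log2 0.38, SE 0.15, 95% interval 0.03 to 0.73, adjusted p = 0.827, limma). Without vehicle array 1 the difference was 0.19, still at an unadjusted p under 0.05, whereas without any 1 of the NAC arrays that p exceeded 0.05. Cxcr5, the receptor of Cxcl13, held 4.53 on all 3 vehicle arrays and 4.82, 4.36, 4.67 and 4.53 on the NAC arrays, on both sides of the vehicle value.

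B and plasma cell markers, given beside Cxcl13, did not move as 1 group. Of 7 measured markers (8 listed) 5 were above 0 and 2 below, with a median of 0.11. Pax5, a B cell transcription factor, was above vehicle on all NAC arrays (log2 fold change 0.09), and Jchain, a chain of secreted antibodies, was below vehicle on all NAC arrays (log2 fold change -0.48), both at an unadjusted p under 0.05. The mean level of the markers was 5.70 to 5.76 with vehicle and 5.54 to 5.92 with NAC. Follicular dendritic cell markers (4 measured of 5), which mark a stromal source of Cxcl13 in lymphoid tissue, were at 6.91 to 7.02 with vehicle and 6.93 to 7.04 with NAC. This mean rests largely on Clu, at percentile 99.5 of the mean levels of all genes. Cr2, Fcer2a and Madcam1 were dim, at percentiles 9.7, 15.1 and 27.4. The part of either cell type in the Cxcl13 values was not tested.

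Cxcl14, a chemokine that many epithelia make constitutively, stood at 8.71, 8.71 and 8.75 on the vehicle arrays and at 8.68, 8.60, 8.58 and 8.68 on the NAC arrays. All NAC arrays were below all vehicle arrays, and NAC arrays 1 and 4 came closest to them. The difference was -0.09 (SE 0.04, 95% interval -0.18 to 0.00), and the groups overlapped after the arrays were quantile normalized again. Without NAC array 1 or NAC array 4 its unadjusted p was under 0.05. Cxcl12, a stromal chemokine that binds Cxcr4, was at 7.15, 7.13 and 7.19 with vehicle and at 7.14, 7.00, 7.20 and 7.02 with NAC, a difference of -0.07 (SE 0.05). Its highest value was on NAC array 3 and its lowest on NAC array 2. Cxcl16 and Cxcl17 differed by 0.14 each and Cxcl3 by 0.03, all with overlapping groups. Cxcl16 was highest on NAC array 2, without which its difference was 0.00, and Cxcl17 differed by 0.09 without vehicle array 1 or NAC array 3.

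Cxcl15, named lungkine for its expression in lung epithelium, had the widest spread among the CXC ligands. It was at 6.04, 6.08 and 6.35 on the vehicle arrays and at 5.75, 5.68, 7.02 and 6.08 on the NAC arrays. NAC array 3, the array with the lung epithelium markers, was highest, and NAC arrays 1 and 2 were lowest. The difference was -0.03 (SE 0.32) over all arrays and -0.32 without NAC array 3. The mean level of the 7 lung markers was at most 5.75 with NAC outside that array and at most 5.72 with vehicle.

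The interferon-induced CXC ligands that bind Cxcr3 on activated T cells were represented by Cxcl9 and Cxcl10. Cxcl9 was at 7.31, 7.30 and 7.43 with vehicle and at 7.42, 7.36, 7.01 and 6.78 with NAC. NAC arrays 3 and 4 were below the vehicle arrays and NAC arrays 1 and 2 among them, with a difference of -0.20 (SE 0.16) that was -0.08 without NAC array 4. Cxcl10 ranged from 6.57 to 6.73 with vehicle and from 6.41 to 6.87 with NAC, and the means differed by 0.01. Of 7 measured interferon gamma-induced genes (12 listed) 6 were below 0 and 1 above, with a median of -0.09. Irgm1, an interferon-inducible GTPase, was the 1 gene among them at an unadjusted p under 0.05, with a log2 fold change of -0.33, and it was lower on every NAC array than on any vehicle array.

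The other CC ligands position lymphocytes and dendritic cells or are made by barrier epithelium. Of the 6, 5 were above 0 and 1, Ccl19, was below, with a median of 0.06. Ccl19, which guides cells with Ccr7 into lymphoid tissue, stood at 6.87, 7.11 and 6.30 on the vehicle arrays and at 6.45, 5.65, 5.99 and 6.76 on the NAC arrays. NAC arrays 2 and 3 were below all vehicle arrays, while NAC arrays 1 and 4 were above vehicle array 4. This was the most negative difference among the members, -0.54 (SE 0.30, 95% interval -1.27 to 0.18), and it was -0.36 without NAC array 2 and -0.37 without vehicle array 2. Without NAC array 4 it was -0.73, at an unadjusted p under 0.05. Ccr7 was at 7.01, 7.26 and 7.26 with vehicle and at 7.19, 7.21, 7.36 and 7.26 with NAC, a difference of 0.07 (SE 0.08) that was -0.01 without vehicle array 1. Ccl22 and Ccl25 differed by 0.11 and 0.09, Ccl20 by 0.03 and Ccl28 by 0.02.

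Some ligands differed far more between mice of 1 group than between the groups. Ccl7, a monocyte attractant that binds Ccr2, was at 6.25, 7.57 and 6.40 on the vehicle arrays and at 6.28, 8.21, 6.57 and 7.58 on the NAC arrays. It was high on vehicle array 2, NAC array 2 and NAC array 4 and low on the other arrays of both groups, a range of 1.96 on the log2 scale that was at least as wide as that of 99.8% of all genes. Ccl17, a ligand of Ccr4 made by dendritic cells, was at 6.66, 7.37 and 6.82 with vehicle and at 6.58, 7.56, 6.65 and 7.43 with NAC. Its high arrays were the same as those of Ccl7. Ccl9 was also highest on these arrays, although NAC array 1 (7.68) was close to vehicle array 2 (7.70). The mean level of the 6 measured neutrophil markers was also highest on these arrays, at 5.57, 5.89 and 5.51 with vehicle and at 5.71, 6.08, 5.73 and 5.80 with NAC. Of these markers only Csf3r had this pattern by itself. All 6 were dim, at percentiles 14.7 to 37.3 of the mean levels of all genes. S100a8, S100a9 and Retnlg were equal on NAC arrays 3 and 4, and Mpo was higher on vehicle array 1 than on vehicle array 2. Elane was higher on NAC arrays 1 and 3 than on vehicle array 2 or NAC array 2. Ackr1, an atypical receptor that binds many inflammatory chemokines, was also highest on the arrays where Ccl7 was high. It was at 5.87, 6.86 and 5.88 with vehicle and at 5.95, 6.82, 6.15 and 6.45 with NAC. Pdpn, a lymphatic and stromal marker, was likewise highest there. Its levels were 8.29, 9.07 and 8.38 with vehicle and 8.58, 9.10, 8.65 and 8.98 with NAC. These genes were singled out after their values were seen. The other listed lymphatic markers, Lyve1, Prox1, Flt4 and Reln, did not have the pattern of Ccl7, and Lyve1 was highest on NAC array 3. Nor did Ackr2, Ackr3, Ackr4, Ccrl2 and Pitpnm3, which were listed with Ackr1. The difference between the groups was 0.42 (SE 0.54) for Ccl7 and 0.10 (SE 0.30) for Ccl17, and for Ccl7 it was 0.84 without vehicle array 2 and 0.07 without NAC array 2. Ccl17 changed sign when vehicle array 1, NAC array 2 or NAC array 4 was left out. Dendritic cell markers (6 of 6 measured) were at 6.23 to 6.29 with vehicle and 6.13 to 6.23 with NAC, with 4 of 6 below 0 and Itgax and Clec9a lower at an unadjusted p under 0.05. The part of any of these cells in the Ccl7 and Ccl17 values was not tested.

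**Figure D3:**
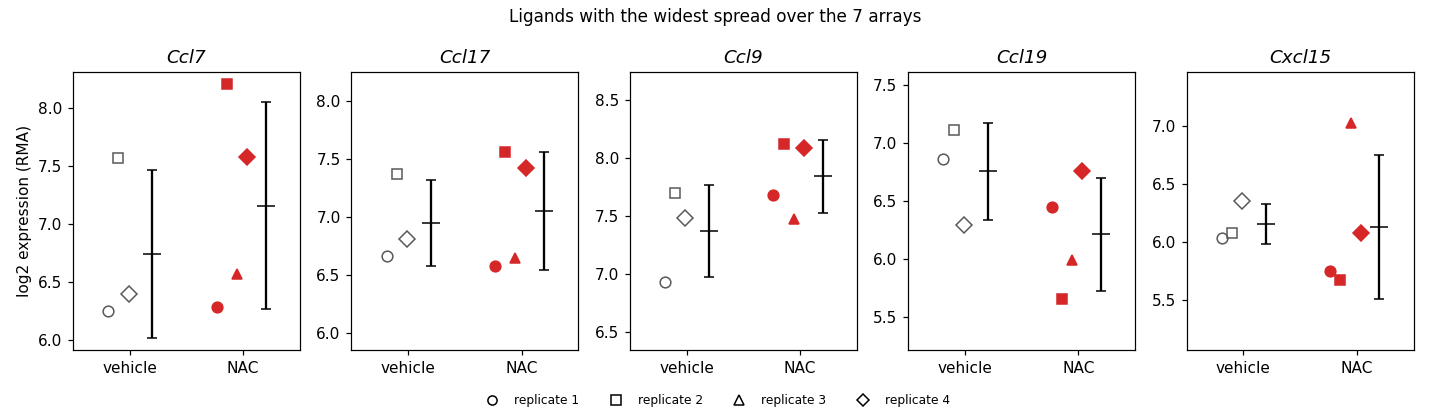
Log2 expression (y axis, RMA) of Ccl7, Ccl17, Ccl9, Ccl19 and Cxcl15, the members with the widest range over the 7 arrays, on each vehicle array (open grey symbols) and NAC array (filled red symbols), with the mean and SD of each group. Ccl7 and Ccl17 are high on replicate 2 of both groups and on NAC array 4, and Cxcl15 is highest on NAC array 3.

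The median range over the 7 arrays was 0.39 for the members and 0.25 for all genes. Ccl7, Ccl9, Ccl19 and Cxcl15 (4 members) had a range over 1, as had 1.35% of all genes. The lowest values were concentrated on vehicle array 1, which alone held the lowest value of 16 members (35.6%, against 11.2% of all genes). The highest values were spread over NAC arrays 2, 3 and 4, with 10, 10 and 11 members, and vehicle array 4 with 8. As shares these are 22.2%, 22.2%, 24.4% and 17.8% of members, against 13.1%, 14.8%, 19.3% and 10.7% of all genes. Vehicle arrays 1 and 2 were each highest in 1 member (2.22%, against 18.3% and 10.2% of all genes), and NAC array 1 in 3 (6.67%, against 11.8%). On average, the members deviated from their own means by -0.10 on vehicle array 1 and by 0.07 on NAC array 4, and by at most 0.04 on each of the others. The medians of the arrays over all genes lay between 7.16 and 7.20.

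**Figure D4:**
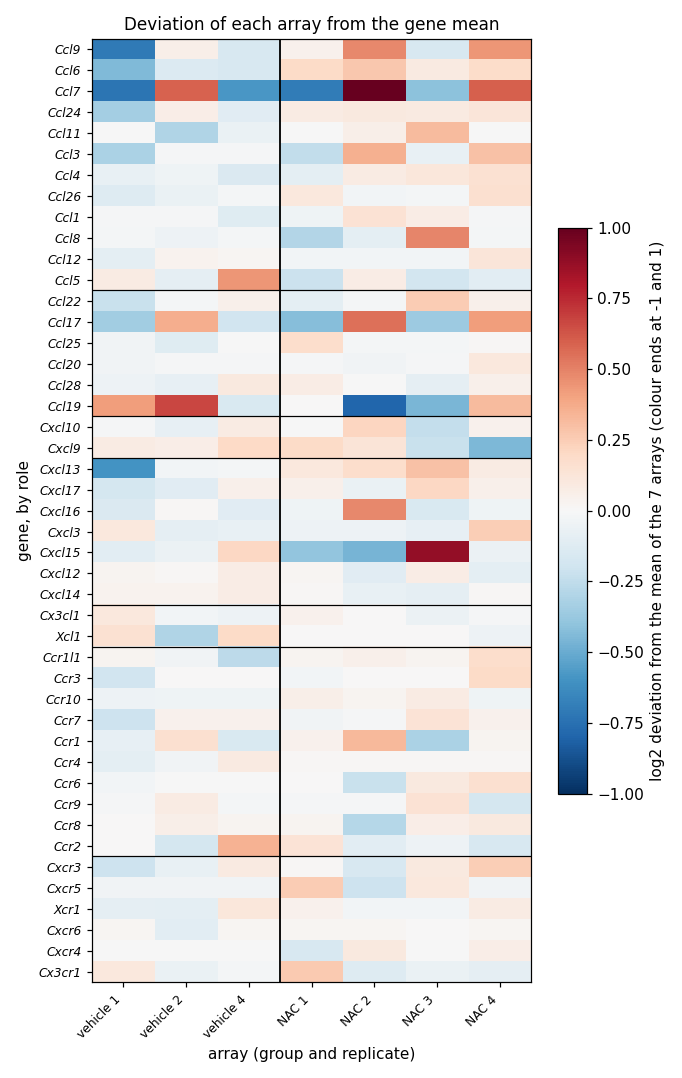
Deviation of each array (columns) from the mean of the 7 arrays for each of the 45 members (lines, by role), on the log2 scale, with colours ending at -1 and 1. Vehicle array 1 is the lowest array in 16 members, and the widest deviations are in Ccl7, Ccl9, Ccl19 and Cxcl15.

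The log2 fold changes of the receptors, most of them dim on the arrays, lay between -0.10 for Ccr2 and 0.16 for Ccr1l1, and 0 of the 16 passed the unadjusted threshold (1.89% of all genes were higher and 2.53% lower). Of the 10 CC receptors, 7 were above 0 and 3 below, with a median of 0.04. Ccr1, which binds Ccl6 and Ccl9 and is carried by monocytes and neutrophils, stood at 4.56, 4.80 and 4.49 on the vehicle arrays and at 4.68, 4.96, 4.32 and 4.67 on the NAC arrays. NAC array 2 was highest and NAC array 3 lowest, and the difference was 0.04 (SE 0.15, 95% interval -0.32 to 0.40). Ccr3, the eotaxin receptor of eosinophils, was at 5.06, 5.25 and 5.25 with vehicle and at 5.22, 5.25, 5.25 and 5.44 with NAC. Vehicle arrays 2 and 4 and NAC arrays 2 and 3 held the same value, and the difference of 0.10 (SE 0.07) was 0.04 without vehicle array 1 and 0.05 without NAC array 4.

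Ccr2, the receptor of inflammatory monocytes, was at 5.86, 5.69 and 6.21 with vehicle and at 6.00, 5.76, 5.81 and 5.70 with NAC. Vehicle array 4 was highest, and the difference of -0.10 (SE 0.13) was 0.04 without it. Ccr10, a receptor for Ccl27 and Ccl28 on lymphocytes of skin and mucosa, was at 6.46, 6.47 and 6.47 with vehicle and at 6.58, 6.54, 6.60 and 6.47 with NAC. NAC arrays 1, 2 and 3 were above all vehicle arrays and NAC array 4 equalled vehicle arrays 2 and 4, with a difference of 0.08 (SE 0.04). Its unadjusted p was under 0.05 without NAC array 4. Ccr4, Ccr6, Ccr8 and Ccr9 lay between -0.05 and 0.03.

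Of the 6 CXC, CX3C and XC receptors, 5 were above 0 and 1, Cx3cr1, was below, with a median of 0.04. Cxcr3, the receptor of effector T cells for Cxcl9 and Cxcl10, was at 6.19, 6.32 and 6.48 with vehicle and at 6.40, 6.24, 6.49 and 6.64 with NAC, a difference of 0.11 (SE 0.11) that was 0.04 without vehicle array 1 and 0.05 without NAC array 4. Cxcr4 held 6.35 on all vehicle arrays and 6.18 to 6.44 on the NAC arrays, with equal means. The difference of Cxcr5 was 0.07 (SE 0.10), that of Cxcr6 was 0.04 and that of Xcr1 was 0.04. T cell markers, of which 8 of 9 were measured, were at 5.96 to 6.06 with vehicle and 5.97 to 6.02 with NAC.

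The membrane-bound CX3C ligand Cx3cl1 (fractalkine) was at 9.47, 9.34 and 9.32 with vehicle and at 9.41, 9.38, 9.31 and 9.36 with NAC. Its difference was -0.01 (SE 0.05, 95% interval -0.13 to 0.10). Xcl1 (lymphotactin), made by T and NK cells, differed by -0.03 (SE 0.12). NK cell markers (6 of 6 measured) were at 5.30 to 5.42 with vehicle and 5.30 to 5.44 with NAC.

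Ligands and their receptors were then set side by side. Among 23 measured pairs, 12 had both partners above 0, 1 had both below 0 and 10 had opposite signs, and pairs that share a gene are not independent. Over all members, 72.4% of ligands and 75% of receptors were above 0, so many pairs above 0 arise without a link between partners. The counts are not read as agreement. The pair below 0 was Cx3cl1 with Cx3cr1. Ccl6 with Ccr1 (0.43 and 0.04), Ccl24 with Ccr3 (0.23 and 0.10) and Cxcl13 with Cxcr5 (0.38 and 0.07) each had the larger log2 fold change in the ligand. These ligands were singled out because they lay above vehicle on every NAC array, so the larger ligand value follows largely from that choice. Ccl7 with Ccr2 (0.42 and -0.10) and Ccl19 with Ccr7 (-0.54 and 0.07) had opposite signs.

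Genes that act around the receptors were also counted. Of the 6 genes listed as atypical receptors (Ackr1, Ackr2, Ackr3, Ackr4, Ccrl2 and Pitpnm3), 2 were above 0 and 4 below, with a median of -0.01. Of 17 measured G proteins and effectors that act below the receptors (18 listed), 9 were above 0 and 8 below, with 0 at an unadjusted p under 0.05. Of 11 measured receptor kinases, arrestins and RGS proteins (12 listed), which end the signal, 3 were above 0 and 8 below, with a median of -0.03. Rgs1, a regulator of chemokine receptor signals in lymphocytes, was the 1 gene among these at an unadjusted p under 0.05, at 5.12, 5.19 and 5.36 with vehicle and 5.42, 5.35, 5.36 and 5.56 with NAC (log2 0.20, SE 0.08). The platelet chemokines Pf4 and Ppbp, which the name rule did not match, differed by 0.29 (SE 0.15) and 0.10 (SE 0.06) with overlapping groups.

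The precision of these values was set by the 7 arrays. The half-width of the 95% confidence interval had a median of 0.21 on the log2 scale over the members. The interval lay within 0.25 of 0 on both sides for 15 of the 45 members and reached beyond it on at least 1 side for the others.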

How the data were processed

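RNA of Nkx3.1-/- prostates was measured on 3 vehicle and 4 NAC arrays, and each array took its treatment and replicate number from its labels. By the methods of the study, each array holds RNA of a separate mouse. The deposited values are log2 expression, which the authors computed by RMA: background was corrected, arrays were quantile normalized and perfect-match probes were summarized by median polish. Per the submitters' notes, affy and limma were among the tools. Quantile normalization sets the arrays to 1 distribution, so differences are relative to the other genes. No background or detection values were used here, and the number of arrays limits precision.

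Of 20696 probe sets, 18950 named 1 gene, 678 several and 1068 none. The probe set with the highest mean stood for a gene, 18910 of the 18938 genes were found in the GRCm38.p6 gene table (all 45 members), and no gene was filtered out. NAC and vehicle were compared over all genes in a limma model without covariates (version 3.58.1 under R 4.3.3), with moderated two-sided tests and Benjamini-Hochberg adjustment, and the script was tested on simulated data. Single members were also compared with an exact permutation test. The build of the array design is not given in the sources used here.

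Genes named with values per array are Ccl6, Ccl24, Cxcl13 and Cxcl14, members whose groups do not overlap, the 6 members per direction with the smallest unadjusted p, the 6 with the widest range, and the receptors of Ccl6, Ccl24 and Cxcl13. Ccl3, Ccl11, Ccr7, Cxcr3 and Cx3cl1 were added after their values were seen. The members, lists and tests were chosen with earlier results of these data known. As alternatives, the variance was given an intensity trend and fitted robustly, arrays were weighted, array medians were subtracted, and quantile normalization was repeated. Dim genes (mean under the 40th percentile) were removed, the probe sets of a gene were summarized by their median, the replicate number was used as a block, and each array was omitted in turn.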

Additional observations from a re-analysis of the deposited data

Results flagged for a closer look

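In 9 of the 45 members (20%), 1 NAC array lay far from the other 3 relative to the range of the group, as it did in 20.3% of all genes, while chance alone gives about 1 in 20 groups. Tied values of the other arrays make such gaps large even where they are small on the log2 scale. The widest was Cxcl16, a membrane-bound ligand of Cxcr6, at 8.01 on NAC array 2 against 7.37 to 7.48 on the other NAC arrays and 7.38 to 7.54 with vehicle. Cx3cr1, the fractalkine receptor of monocytes and macrophages, was at 7.23 on NAC array 1 against 6.84 to 6.90 on the other NAC arrays. Ccl25, a ligand of Ccr9, was at 7.49 on NAC array 1 against 7.29 to 7.32. On NAC array 4, Cxcl3 was at 5.68 against 5.36 to 5.39, Ccr3 at 5.44 against 5.22 to 5.25, Ccl12 at 5.27 against 5.13, and Xcl1 at 5.93 against 5.98. Ccr4 was at 5.33 on NAC array 2 against 5.32 on the others, and Cxcr6 at 5.75 on NAC array 3 against 5.76.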

How the results depend on the processing

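Of 14 alternatives, the median over probe sets could not change a member, since each has 1 probe set. Over the other 13, the 19 genes named by rule gave 237 values, of which 197 kept their direction and their side of an unadjusted p of 0.05, 14 lost that threshold, 16 gained it and 10 changed sign. Ccl6 passed it in all 13. Over all genes, 836 were called at an unadjusted p under 0.05, and 554 to 1257 under the alternatives. With array weights, 1 member was lower at that threshold (2.22%, against 2.95% of all genes). After quantile normalization again, 0 members lay wholly below vehicle (3.46% of all genes did) and the median of the members was 0.019. Without dim genes, which left 17 of the 45 members, it was 0.089. With each array left out in turn, adjusted calls over all genes were 0 to 1 (1 without NAC array 4, not a member), and the median of the members was 0.034 to 0.066. Members higher at an unadjusted p under 0.05 were then 2 to 5 (1.37% to 2.4% of all genes) and lower 0 to 2 (1.56% to 4.24% of all genes). Members wholly above vehicle were 3 to 8 (1.89% to 4.85% of all genes) and wholly below 1 to 3 (3% to 7.28% of all genes). Log2 fold changes that changed sign ranged from -0.066 to 0.313 for Ccl17, from -0.219 to 0.044 for Ccr2, from -0.323 to 0.126 for Cxcl15, from -0.058 to 0.156 for Ccr1 and from -0.010 to 0.146 for Cxcr5. The causes were not tested, apart from the fewer arrays or genes. Deviations of same-numbered arrays correlated with r of 0.212, 0.286 and -0.067 for numbers 1, 2 and 4, across genes that are not independent replicates. These values do not decide whether the numbers are pairs, and the main model took none. With the replicate number as a block, NAC array 3 has no partner and does not enter the differences. They equal those without that array (0.459 for Ccl6 and -0.323 for Cxcl15). In this fit 5 members were higher (Ccl3, Ccl6, Ccl9, Ccl26 and Ccr1, 11.1% against 2.45% of all genes) and 1 lower (Cxcl15, 2.22% against 2.6%). Ccl24 and Cxcl13 lost the threshold, and the median was 0.053.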
